A study of Mus musculus with 6 samples.

Results

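Solute carriers are the membrane proteins that move nutrients, ions, metals and organic acids across the plasma membrane and the membranes of organelles, and in this table they were taken as the protein-coding genes whose symbol has the form Slc, a family number, the letter a and a member number, or begins with Slco. Of 356 such genes in the table, 182 had at least 10 raw counts in every one of the 6 libraries and form the set described here, out of 54532 genes in all. The raw counts chose the members, so their presence at this level is not a result. The other 174 fell below 10 counts in at least 1 library, and 79 of those had no count in any library. The 182 members belonged to 45 families and all were among the 13175 genes tested.

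The libraries came from macrophages that GEO's labels and design text give as derived from the bone marrow of mice and treated with monosodium urate (MSU), the crystal of gout. The first group, 3 libraries, is labelled Tet2 knockout and MSU, and the second, also 3, wild-type and MSU. The Tet2 protein is a dioxygenase that acts on methylated cytosines. The allele, the strain and age of the mice and whether replicates came from separate mice are not given in the labels, so the p-values reflect spread among these particular libraries, and that spread could be technical. All 6 libraries had MSU, so no value here describes a response to the crystal.

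In macrophages, carriers set the supply of glucose, amino acids and nucleosides, move lactate and protons across the plasma membrane, and withdraw or deliver iron, zinc and copper at the phagosome. Several amino acid exchangers of the Slc7 family work as heterodimers with the heavy chain encoded by Slc3a2, and carriers of the Slc25 family cross the inner mitochondrial membrane. Urate leaves or enters cells through a few carriers, among them the one encoded by Slc2a9, and variants of its human counterpart are among the best known genetic influences on serum urate.

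Total counts ran from 11997104 to 14481843 per library. Tet2 itself was called higher in the libraries labelled knockout, against what the label would give, with no overlap (33.7 ± 0.799 CPM, against 29.3 ± 1.41 CPM in the wild-type libraries; SD, n = 3 each; log2 change 0.20, edgeR adjusted p = 0.0159), where CPM is the usual library-size-scaled count, here with TMM factors. Gene-level counts would miss the loss of a single exon, so directions below are those of the labels. All 8 macrophage markers were present, with summed levels of 6665 to 6939 CPM in the knockout-labelled libraries and 6492 to 6906 CPM in the wild-type libraries. Within the list 4 rose and 3 fell, from a log2 change of -0.47 (Lyz2) to 0.78 (Adgre1), changes as large as most of those below, and their part in the results was not tested. Connective tissue markers were also abundant and lay lower, at 7085 to 7265 CPM in the knockout-labelled libraries and 7587 to 8100.1 CPM in the wild-type libraries. Of these 10 markers 6 fell and 1 rose, and their part in the results below was not tested. Dendritic cell markers summed to 5.40 to 6.68 CPM in the knockout-labelled libraries and 3.27 to 4.82 CPM in the wild-type libraries, with Cd209a at 0. Markers of neutrophils, lymphocytes, erythroid cells and mast cells summed to under 2 CPM in every library, with Ly6g, Retnlg, Cd3g, Nkg7, Hbb-bs, Hbb-bt, Hba-a1, Hba-a2, Mcpt4 and Fcer1a at 0. In bulk libraries fewer cells of a type and less RNA per cell cannot be told apart.

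Solute carrier transcripts were more often higher than lower in the libraries labelled Tet2 knockout. Of the 182 members, 74 rose and 22 fell at an edgeR adjusted p under 0.05, so 52.7% were called, 40.7% higher and 12.1% lower. Over all genes tested the call rate was 40.9%, with 21.6% higher and 19.2% lower. Among protein-coding genes held to the same minimum of 10 counts in every library it was 43.8%, with 22.9% higher and 20.9% lower. The median log2 change of the members was 0.11, against -0.00309 over all genes tested, and their median absolute log2 change was 0.18, against 0.17. The libraries of the 2 groups did not overlap in 112 members (61.5%), where 47.8% of all tested genes had no overlap and 50.6% of those protein-coding genes. Many members named below were picked in part for having no overlap, so its mention there is a description and adds no support. By class the share called was 67.7% for amino acids, 66.7% for fatty acids and choline, 58.3% for monocarboxylates, 57.7% for metals, 56.0% for inorganic ions, 52.8% for mitochondrial carriers and 50% for sugars. It was 45.5% for nucleosides and vitamins, near the 43.8% of protein-coding genes, 33.3% for the 3 genes that are not carriers, 20% for nucleotide sugars and 15.4% for organic ions. All members together summed to 15136 to 15255 CPM in the knockout-labelled libraries and 14393 to 14516 CPM in the wild-type libraries.

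Most called changes were modest, since 6 members (3.3%) were called with at least a 2-fold difference, 2.2% higher and 1.1% lower. The shares were 2.43% of all genes tested, 1.72% higher and 0.713% lower, and 1.43% of the protein-coding genes, 1.06% higher and 0.371% lower. The members were Slc9a9, Slc13a3, Slc37a1 and Slc39a4 among the rises and Slc6a17 and Slc22a23 among the falls. edgeR estimated a small spread between libraries (biological coefficient of variation 2.63%). When 0.1 was put in its place, called the assumed spread below, 32 members were higher and 11 lower, where 14.3% of all genes were called, 9.28% higher and 5.03% lower. Of the 96 member calls, 78 held under all other alternatives tried.

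**Figure D1:**
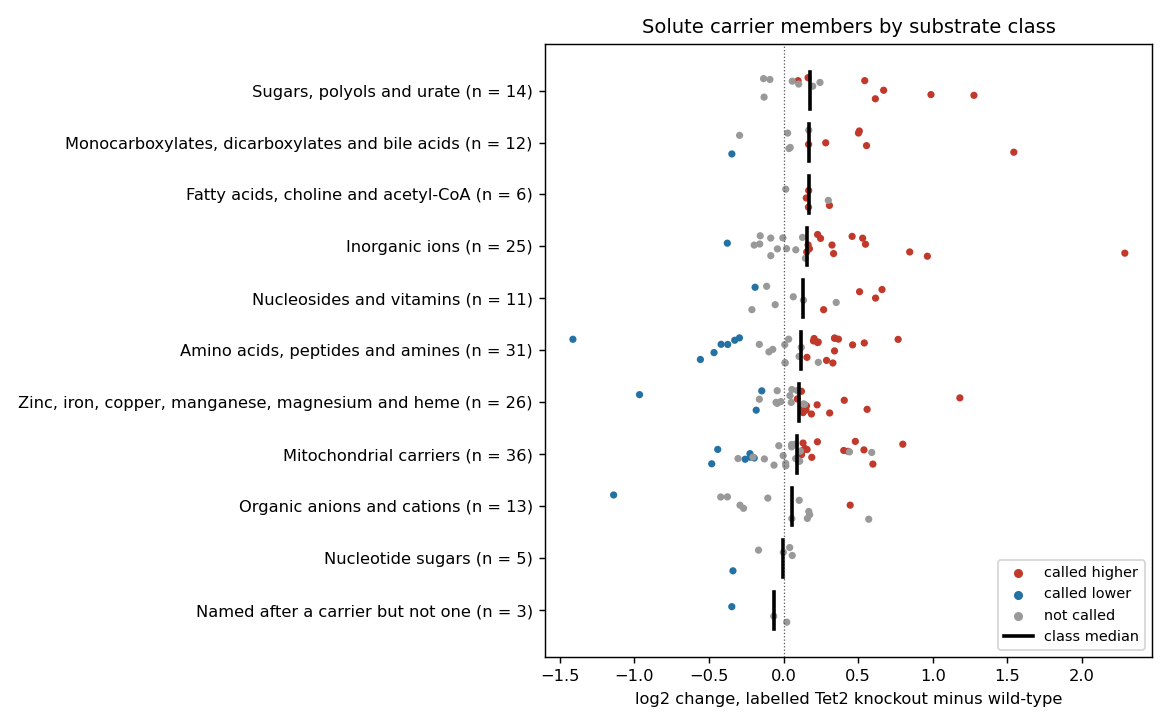
Log2 change of every member, labelled Tet2 knockout minus wild-type, by substrate class (rows, with the number of members). Each point is 1 gene, coloured by its call, and black bars are class medians. Class medians run from -0.07 to 0.18, and the point farthest to the right is Slc9a9 at 2.29.

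Levels compared per kilobase of exon showed which carriers led in these bulk libraries. Connective tissue markers were abundant too, so the levels cannot be assigned to macrophages alone. Slc3a2, the heavy chain of several amino acid exchangers, stood at 247 CPM per kilobase in the knockout-labelled libraries and 341 in the wild-type libraries. Slc15a3, which exports histidine and small peptides from endosomes and lysosomes, followed at 245 CPM per kilobase in the knockout-labelled libraries and 239 in the wild-type libraries. Slc25a5, the mitochondrial ADP and ATP exchanger ANT2, stood at 179 CPM per kilobase in the knockout-labelled libraries and 157 in the wild-type libraries, and Slc48a1, which carries heme out of the phagolysosome, at 134 CPM per kilobase in the knockout-labelled libraries and 118 in the wild-type libraries. The members with a 2-fold change all had mean levels under 5 on this scale in both groups, and among the members above 100 in both groups Slc3a2, Slc6a8, Slc25a5, Slc48a1 and Slc39a1 were called while Slc15a3 was not (log2 change 0.03, edgeR adjusted p = 0.247). A stretch of Slc15a3 equal to 28.1% of its exonic bases is shared with Tmem132a on the opposite strand, so its count is uncertain.

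**Figure D2:**
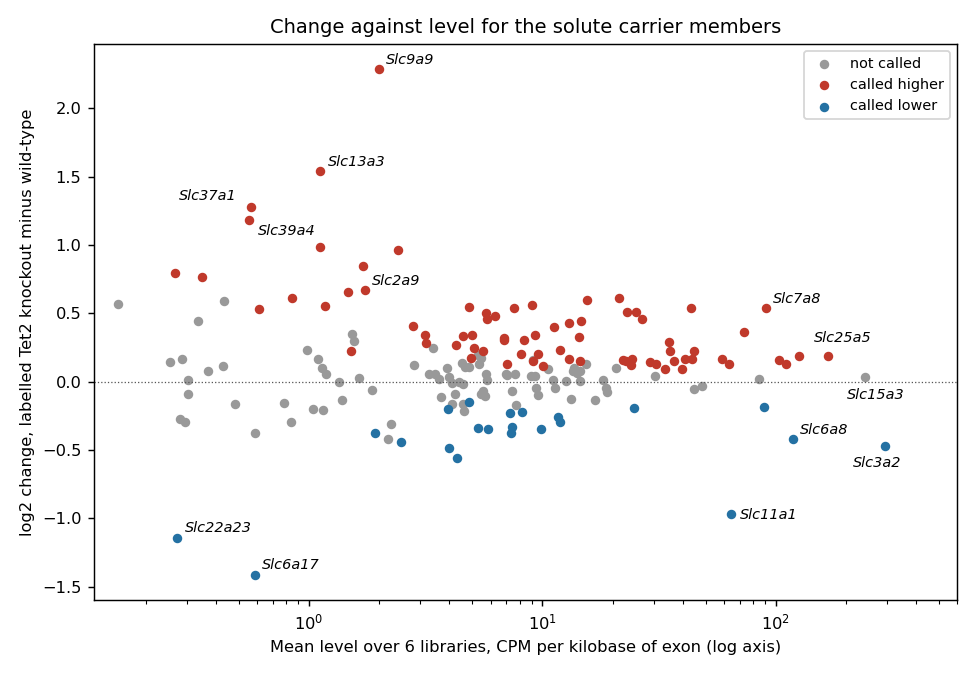
Log2 change (labelled Tet2 knockout minus wild-type) against the mean level over the 6 libraries in CPM per kilobase of exon (log axis). Each point is 1 of the 182 members, coloured by its call. Slc9a9, Slc13a3, Slc37a1 and Slc39a4 rise above 1 at low levels, whereas Slc11a1 and Slc3a2 are abundant members that lie below 0.

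The urate carrier gene Slc2a9 was higher in the libraries labelled Tet2 knockout. Slc2a9 (ENSMUSG00000005107, mm10 chromosome 5, positions 38349273 to 38503143, minus strand) had 10.5, 10.7 and 11.4 CPM in the knockout-labelled libraries, against 6.11, 6.52 and 7.77 CPM in the wild-type libraries. All knockout-labelled values lay above all wild-type values. The ratio was 1.59-fold (log2 change 0.67, SE 0.13), given as a description because the gene was named when the set was drawn up. Its level was low, 2.13 CPM per kilobase in the knockout-labelled libraries and 1.34 in the wild-type libraries. The other urate carriers of kidney and liver were near absent: Slc22a6, Slc22a7, Slc22a8, Slc17a1, Slc17a2, Slc17a3 and Slc17a4 had no count in any library, and Slc22a12 and Slc22a13 had 1 count each over the 6 libraries. Outside the Slc symbols, the urate and nucleotide exporter gene Abcc4 rose by 0.37 on the log2 scale. It had 31.7 ± 2.96 CPM in the knockout-labelled libraries and 24.5 ± 2.11 CPM in the wild-type libraries (SD, n = 3 each). Pnp, purine nucleoside phosphorylase, was called higher (log2 change 0.25, edgeR adjusted p = 0.0242), but its groups overlapped. Its levels were 160 ± 15.6 CPM in the knockout-labelled libraries and 135 ± 7.59 CPM in the wild-type libraries (SD, n = 3 each). The urate exporter gene Abcg2 (0.14, edgeR adjusted p = 0.106) and Xdh, which makes urate (0.04, edgeR adjusted p = 0.219), did not pass, and Pdzk1 and Uox were too low to test.

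**Figure D3:**
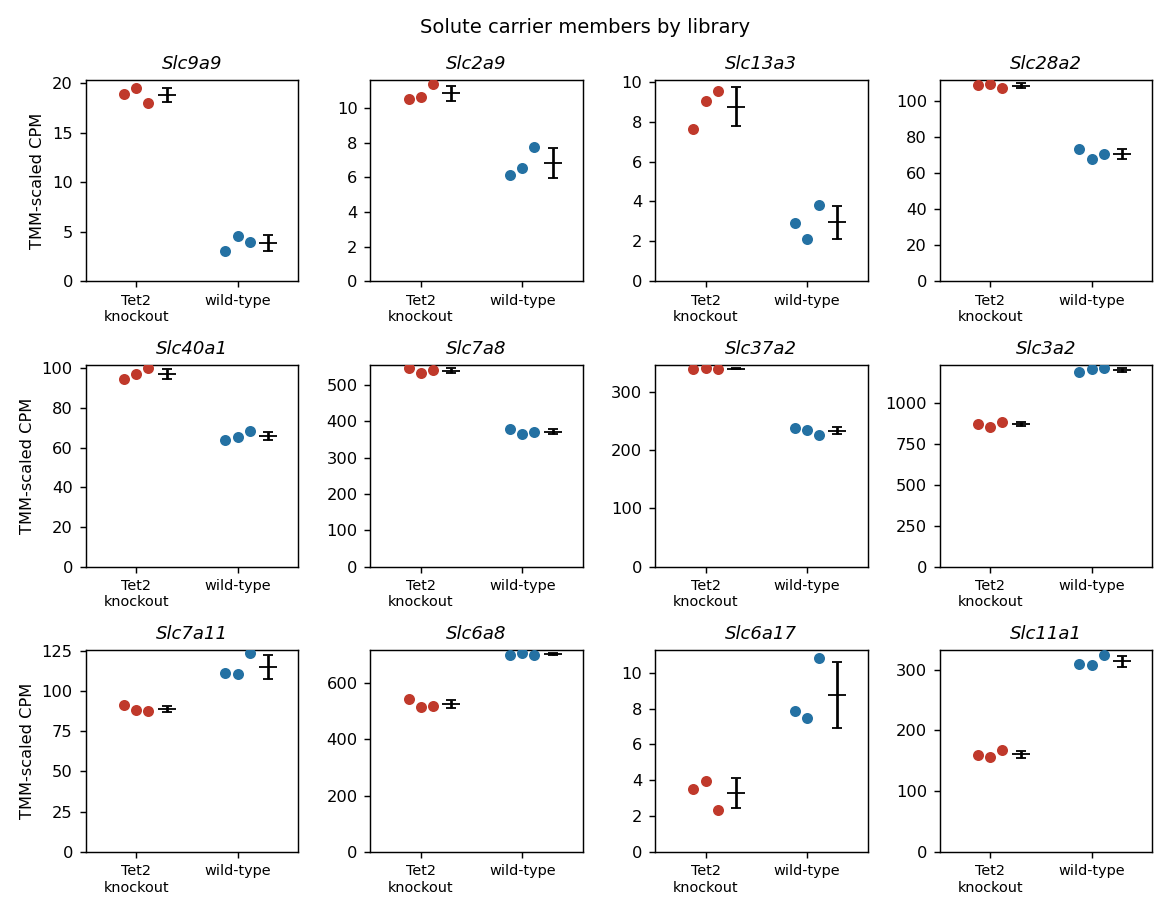
TMM-scaled CPM (linear axes from 0) of 12 members in each library, labelled Tet2 knockout left and wild-type right. Points are libraries, and the bar beside them is the mean ± SD over 3. In each panel the groups do not overlap, which was a condition for naming most of these members. For Slc2a9 the ranges are 10.5 to 11.4 CPM in the knockout-labelled libraries and 6.11 to 7.77 CPM in the wild-type libraries.

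Among sugar and polyol carriers 7 of 14 members rose, none fell and 7 did not pass, with log2 changes down to -0.14 (Slc50a1) and a median of 0.18. Slc37a2, a sugar phosphate exchanger of the endoplasmic reticulum that is abundant in macrophages, had 340.2, 341 and 339 CPM in the knockout-labelled libraries, against 239, 235 and 227 CPM in the wild-type libraries. That is a log2 change of 0.54 (SE 0.03, edgeR adjusted p = 1.28e-32), with no overlap. The related Slc37a1 was far scarcer, at 2.90 ± 0.468 CPM in the knockout-labelled libraries and 1.20 ± 0.225 CPM in the wild-type libraries (SD, n = 3 each), and rose by 1.28. Among glucose carriers, Slc2a1, which encodes GLUT1, had 211, 216 and 226 CPM in the knockout-labelled libraries, against 191, 198 and 194 CPM in the wild-type libraries. This was a small rise (log2 change 0.16), and its call ended with the assumed spread. Slc2a3, which encodes GLUT3, rose by 0.61 and Slc45a3 by 0.99, both at low levels. The seventh call, Slc2a6, was marginal (log2 change 0.10, edgeR adjusted p = 0.048) and was lost on leaving out any library but knockout replicate 2. The edgeR adjusted p was then 0.0562 (no wild-type replicate 3) to 0.224 (no knockout replicate 3), and 0.0383 to 0.68 over all alternatives. Summed over the class, levels were 817 to 831 CPM in the knockout-labelled libraries and 669.9 to 679 CPM in the wild-type libraries, and with the assumed spread 5 members passed. Of 12 genes for partners and gradient makers of carriers 4 rose and 4 fell (66.7% called, against 40.9% of all genes tested). Among them Txnip and Arrdc4, arrestins that remove GLUT1 from the membrane, fell by 0.81 and 0.64 on the log2 scale.

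Amino acid, peptide and amine carriers split, with 14 of 31 higher and 7 lower and a median log2 change of 0.12. The 3 rises with the smallest p were in genes for carriers of neutral amino acids and taurine. Slc7a8, the light chain LAT2, had 546, 533 and 539.5 CPM in the knockout-labelled libraries, against 378, 364 and 370.3 CPM in the wild-type libraries. Slc43a2, which encodes the neutral amino acid carrier LAT4, had 312, 308 and 308 CPM in the knockout-labelled libraries, against 224, 219.7 and 230.4 CPM in the wild-type libraries. Slc6a6, the taurine carrier gene, had 693, 689 and 697 CPM in the knockout-labelled libraries, against 549.6, 526 and 536 CPM in the wild-type libraries. None of the 3 overlapped between groups, which the rule for naming them required. Their log2 changes were 0.54, 0.46 and 0.37 (SE 0.03 each, edgeR adjusted p at most 4.04e-25).

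The lower members of the class included both chains of the cystine and glutamate exchanger xCT. Slc3a2 had 871, 856 and 884 CPM in the knockout-labelled libraries, against 1189.8, 1207 and 1212 CPM in the wild-type libraries. Slc7a11, the light chain that imports cystine for glutathione synthesis, had 91.0, 87.9 and 87.3 CPM in the knockout-labelled libraries, against 111, 110.4 and 124 CPM in the wild-type libraries. Both fell without overlap, Slc3a2 by 0.47 and Slc7a11 by 0.38 on the log2 scale (edgeR adjusted p = 2.13e-35 and 5.71e-13). The other light chains did not follow the heavy chain in one direction. Slc7a8, named above, rose by 0.54, and its call held with the assumed spread. Slc7a5 rose by 0.16, a call that ended with the assumed spread, Slc7a7 fell by 0.33, and Slc7a6 stood at a log2 change of -0.10 (edgeR adjusted p = 0.185). Slc6a8, the creatine carrier gene, had 544, 516 and 517 CPM in the knockout-labelled libraries, against 701, 708 and 700.3 CPM in the wild-type libraries and fell by 0.42. Slc6a17, a carrier known from synaptic vesicles, had the lowest log2 change of the set (-1.41, SE 0.17) from 3.51, 3.98 and 2.35 CPM in the knockout-labelled libraries, against 7.89, 7.51 and 10.9 CPM in the wild-type libraries. The remaining members that fell were Slc1a6, a glutamate carrier gene (-0.56), Slc43a3 (-0.30) and Slc7a7. Slc43a3 was placed in this class by family and is a purine nucleobase carrier by function.

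Of the other members that rose, those named next changed by less. The arginine carriers Slc7a2 and Slc7a1 changed by 0.34 and 0.20, the neutral amino acid exchangers Slc1a4 and Slc1a5 by 0.34 and 0.23, and the glutamine carrier Slc38a1 by 0.20. Slc36a1, which exports amino acids from lysosomes, rose by 0.33. Slc38a2, the stress-responsive glutamine carrier, did not pass (-0.07, edgeR adjusted p = 0.0873). The class summed to 5798 to 5875 CPM in the knockout-labelled libraries and 5789.5 to 5864 CPM in the wild-type libraries, ranges that overlap. With the assumed spread 9 members passed, and the calls of Slc7a5, Slc7a7, Slc7a1, Slc1a4, Slc1a5, Slc36a1, Slc38a1 and Slc43a3 ended. Of 10 regulators and targets of the amino acid and oxidative stress responses 1 rose and 5 fell (60% called, against 40.9% of all genes tested). Atf4, the transcription factor of the amino acid response, had 347 ± 12.8 CPM in the knockout-labelled libraries and 449 ± 10.3 CPM in the wild-type libraries (SD, n = 3 each; log2 change -0.37). Ddit3, Nfe2l2, Gclm and Trib3 fell too, and Asns, asparagine synthetase, rose by 0.21.

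The element to which ATF4 and C/EBP factors bind, TGATGNAA, was searched on both strands in the RefSeq promoter windows (GRCm38.p6, 250 bases before to 50 after each annotated start), in which 137 of the 182 members were found. It occurred in 3.8% of the 184 member windows and in 3.97% of all 32851 windows, in 6 member genes. The windows below, 1 for each of 5 genes, show it where it lies before the start, 5′ to 3′ on the gene's strand, with the element in capitals (reverse complement where it lies on the other strand). They are given because xCT is a known target of this element and because Slc9a9, the largest rise, carries it too.
Slc7a11, chr3:50443646-50443705, minus strand: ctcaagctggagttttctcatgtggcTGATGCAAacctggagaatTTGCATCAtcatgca
Slc9a9, chr9:94669797-94669856, plus strand: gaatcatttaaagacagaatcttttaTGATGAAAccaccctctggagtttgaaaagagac
Slc7a7, chr14:54418052-54418111, minus strand: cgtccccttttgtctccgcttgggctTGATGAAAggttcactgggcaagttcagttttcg
Slc50a1, chr3:89270726-89270785, minus strand: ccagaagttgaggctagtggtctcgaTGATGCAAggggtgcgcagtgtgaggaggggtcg
Slco2a1, chr9:103008413-103008472, plus strand: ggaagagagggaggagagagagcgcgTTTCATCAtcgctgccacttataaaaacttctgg
Slc7a11 holds the element on both strands, at -66 and -47 relative to the start, and in Slc9a9 it begins at -69. The sixth gene, Slc1a4, holds it across the start and is not shown. Slc7a7 holds it in 1 more place, outside the letters shown. That place lies across the annotated gene start to which the window shown belongs, and at -243 from another annotated start. The genes with the element did not move one way, since Slc9a9 and Slc1a4 rose, Slc7a11 and Slc7a7 fell, and Slc50a1 and Slco2a1 did not pass. A match is a description of these letters and not a bound site.

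Of the other motifs searched the same way, the string TGCNCNCNC occurred in 27.2% of member windows and 22.6% of all windows. It was written for the metal response element, as the core TGCNCNC with a flank. Its fixed last C leaves out elements with another base there, so a match is to this string only. The hypoxia response core ACGTG occurred in 28.8% of member windows and 19.6% of all. The string TGANNNNGC, written for the antioxidant response core, occurred in 51.1% of member windows and 41.3% of all. It leaves the base after TGA open, as the element does not, so a match is to this string only. The windows of all genes were taken whatever their counts, whereas members had at least 10 counts in every library. The 2 sets of windows are thus unlike, here and for TGATGNAA, and whether the shares differ for that reason was not tested. A base can belong to more than one of these motifs. Of the 43 member genes with TGCNCNCNC 19 rose and 2 fell. Of the 47 with ACGTG 16 rose and 9 fell, and of the 76 with TGANNNNGC 31 rose and 10 fell. Among all 137 members found in these windows 54 rose and 18 fell.

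Inorganic ion carriers rose in 13 of 25 members and 1 fell, with a median log2 change of 0.15. Slc9a9 (ENSMUSG00000031129, mm10 chromosome 9, positions 94669909 to 95230445, plus strand), an exchanger of sodium or potassium for protons in recycling endosomes, had 18.9, 19.5 and 18.01 CPM in the knockout-labelled libraries, against 3.06, 4.62 and 3.96 CPM in the wild-type libraries. This was the largest change of the set, 4.88-fold (log2 change 2.29, SE 0.13), given as a description for the same reason as Slc2a9. Of its relatives, Slc9a7, the exchanger of the trans-Golgi network, had 7.72, 8.52 and 8.93 CPM in the knockout-labelled libraries, against 5.12, 4.70 and 4.17 CPM in the wild-type libraries and rose by 0.84. Slc9a8 of the Golgi did not pass (-0.01, edgeR adjusted p = 0.957). Slc9a9 stood at 3.31 CPM per kilobase in the knockout-labelled libraries and 0.683 in the wild-type libraries, so in wild-type libraries it was below Slc9a7 and Slc9a8, whose levels there were 1.22 and 4.11.

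Among bicarbonate, chloride and calcium carriers the rises were smaller than that of Slc9a9. Slc4a7, which brings in bicarbonate with sodium, had 107, 103 and 94.9 CPM in the knockout-labelled libraries, against 75.7, 73.9 and 72.7 CPM in the wild-type libraries (log2 change 0.46, edgeR adjusted p = 6.21e-16). The potassium and chloride cotransporters Slc12a7 and Slc12a4 rose by 0.33 and 0.16, whereas Slc12a2, which carries these ions inward, did not pass (0.02, edgeR adjusted p = 0.875). Slc12a4 was the most abundant member of the class per length, at 25.7 CPM per kilobase in the knockout-labelled libraries and 22.9 in the wild-type libraries. Slc8a1, the sodium and calcium exchanger NCX1, rose by 0.55. Slc24a5 rose by 0.96, but 39.5% of its exonic bases are shared with Myef2 on the opposite strand, so its count is uncertain. Both phosphate importers, Slc20a1 (-0.04) and Slc20a2 (-0.09), did not pass.

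The 1 member that fell, the anion exchanger gene Slc26a6, had 7.86, 9.45 and 9.91 CPM in the knockout-labelled libraries, against 10.8, 11.6 and 12.9 CPM in the wild-type libraries (log2 change -0.38, edgeR adjusted p = 0.0065). On leaving out knockout replicate 1 the edgeR adjusted p was 0.087, and on leaving out wild-type replicate 3 it was 0.0623, so the call was lost in both (range over alternatives 0.0041 to 0.087). With the assumed spread 6 of the class passed, and Slc26a6, Slc12a7 and Slc12a4 did not.

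Mitochondrial carriers, the largest class, rose in 13 of 36 members and fell in 6, with a median log2 change of 0.09. By p, the first among the rises were carriers of dicarboxylates, aspartate and glutamate. Slc25a10, which exchanges malate and succinate for phosphate, had 65.8, 64.1 and 63.0 CPM in the knockout-labelled libraries, against 42.6, 42.8 and 42.1 CPM in the wild-type libraries. Slc25a12, one of the paired aspartate and glutamate exchangers of the malate shuttle, had 67.6, 62.9 and 66.9 CPM in the knockout-labelled libraries, against 45.2, 47.3 and 43.7 CPM in the wild-type libraries, and its partner gene Slc25a13 rose by 0.48. Slc25a22, a glutamate carrier, had 76.8, 72.5 and 80.1 CPM in the knockout-labelled libraries, against 58.3, 57.8 and 57.3 CPM in the wild-type libraries. These groups did not overlap, and the log2 changes of Slc25a10, Slc25a12 and Slc25a22 were 0.60, 0.54 and 0.40 (edgeR adjusted p at most 1.7e-11). Slc25a11, the oxoglutarate carrier of the same shuttle, rose by 0.23.

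The abundant carriers of energy metabolism changed little. The ADP and ATP exchangers Slc25a5 and Slc25a4 rose by 0.19 and 0.16 and the phosphate carrier Slc25a3 by 0.13, and all 3 calls ended with the assumed spread. Those that fell included Slc25a15, the ornithine carrier of the urea cycle, with 12.5, 11.0 and 11.9 CPM in the knockout-labelled libraries, against 15.3, 17.2 and 15.7 CPM in the wild-type libraries. Slc25a33, a pyrimidine nucleotide carrier, fell by 0.48. The iron importers mitoferrin 1 and mitoferrin 2, Slc25a37 and Slc25a28, fell by 0.22 and 0.26, calls that ended with the assumed spread. Leaving out knockout replicate 3, wild-type replicate 1 or wild-type replicate 3 also ended the call of Slc25a28, with edgeR adjusted p of 0.121, 0.0754 and 0.107 (alternatives spanned 0.00238 to 0.237). The carnitine carrier Slc25a20 (0.05, edgeR adjusted p = 0.549) and the glutathione carrier Slc25a39 (-0.03, edgeR adjusted p = 0.538) did not pass. Class sums were 2221 to 2238 CPM in the knockout-labelled libraries and 2023 to 2085 CPM in the wild-type libraries, and 8 members passed with the assumed spread, namely Slc25a10, Slc25a12, Slc25a13, Slc25a15, Slc25a22, Slc25a33, Slc25a42 and Slc25a45. Slc25a42 had the largest log2 change of the class (0.80) at a low level, and its call was fragile. It was lost under DESeq2, with no filter on low counts, and on leaving out knockout replicate 1, knockout replicate 2, wild-type replicate 2 or wild-type replicate 3, with edgeR adjusted p of 0.0548, 0.258, 0.0886 and 0.0727 in these 4 (alternatives spanned 0.0133 to 0.258).

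Carriers of metals and heme rose in 12 of 26 members and fell in 3, with a median log2 change of 0.11. The change with the smallest p of the whole set was a fall. Slc11a1 (ENSMUSG00000026177, mm10 chromosome 1, positions 74375195 to 74386062, plus strand), which encodes NRAMP1, the pump that withdraws iron and manganese from the phagosome, had 159, 156 and 167 CPM in the knockout-labelled libraries, against 309.6, 308 and 324 CPM in the wild-type libraries. The knockout-labelled values were near one another and far below the wild-type values (log2 change -0.97, SE 0.03, edgeR adjusted p = 1.43e-50). Its relative Slc11a2, which encodes DMT1, did not pass (log2 change -0.05, edgeR adjusted p = 0.155). Slc40a1, ferroportin, the iron exporter of the plasma membrane, had 94.5, 97.0 and 100 CPM in the knockout-labelled libraries, against 63.9, 65.5 and 68.3 CPM in the wild-type libraries and rose by 0.56 (SE 0.05, edgeR adjusted p = 3.08e-20). Slc48a1 had 373, 367 and 369 CPM in the knockout-labelled libraries, against 329, 315 and 329.6 CPM in the wild-type libraries, a log2 change of 0.19.

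**Figure D4:**
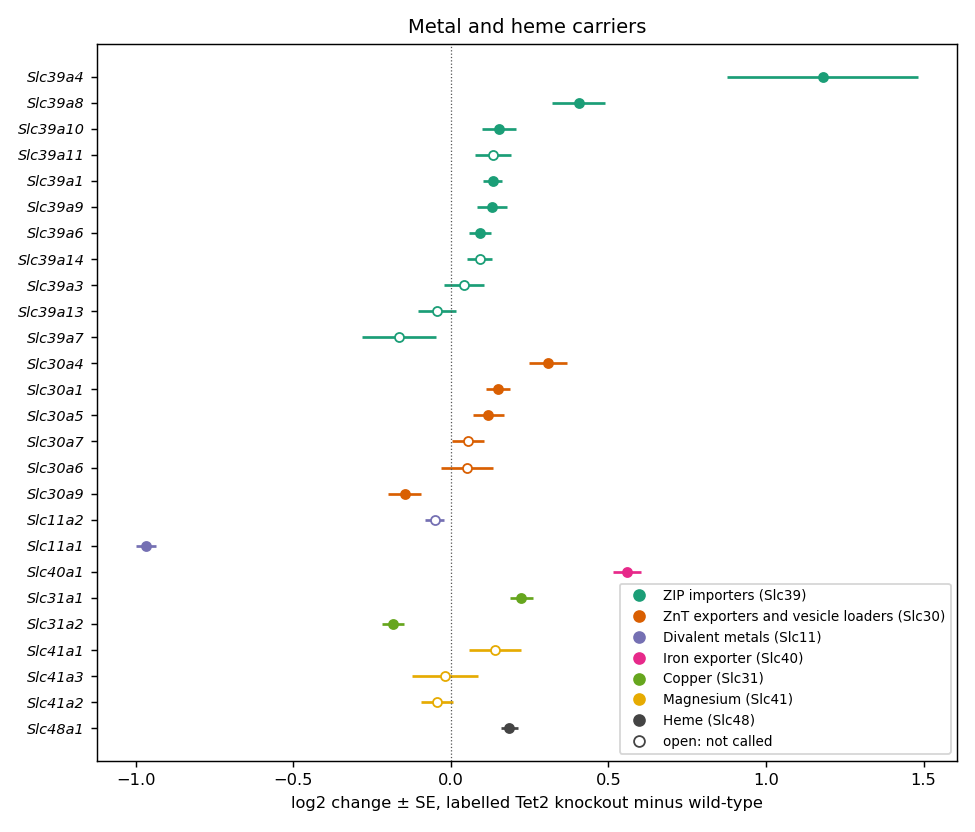
Log2 change (labelled Tet2 knockout minus wild-type) ± SE of the 26 metal and heme carriers, grouped by family. Filled points were called and open points were not. Slc11a1 is the lowest at -0.97, Slc39a4 the highest at 1.18, and Slc40a1 and Slc39a8 lie at 0.56 and 0.41.

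Zinc carriers of the ZIP family, which bring zinc into the cytosol, rose in 6 of 11 members and none fell. The calls of Slc39a6, Slc39a9 and Slc39a10 were lost under DESeq2 (adjusted p = 0.103, 0.0892 and 0.0729). Leaving out 1 library also ended them, Slc39a6 in all cases but knockout replicate 3 and wild-type replicate 2 (edgeR adjusted p up to 0.207), Slc39a9 for knockout replicate 1 and wild-type replicate 3 (up to 0.121) and Slc39a10 for knockout replicate 2 and wild-type replicates 1 and 2 (up to 0.0877). Over all alternatives the ranges were 0.0166 to 0.701, 0.0201 to 0.566 and 0.00986 to 0.478. Slc39a8, which encodes ZIP8, had 23.5, 25.1 and 24.4 CPM in the knockout-labelled libraries, against 18.6, 17.9 and 18.5 CPM in the wild-type libraries (log2 change 0.41, SE 0.08, edgeR adjusted p = 2.48e-05). This gene (ENSMUSG00000053897, mm10 chromosome 3, positions 135825279 to 135888572, plus strand) is the 1 member within 10 Mb of Tet2, starting 2280140 bases beyond its end, so its value and the genotype of that stretch cannot be told apart. Slc39a4 had the largest rise of the class (1.18) at very low levels, 2.39 ± 0.665 CPM in the knockout-labelled libraries and 1.05 ± 0.0915 CPM in the wild-type libraries (SD, n = 3 each). Slc39a1, the most abundant ZIP member per length, rose by 0.13. Of the zinc exporters and vesicle loaders of the ZnT family 3 of 6 rose, namely Slc30a4 (0.31), Slc30a1 (0.15) and Slc30a5 (0.12), and Slc30a9 fell (-0.15). The copper carriers went in opposite directions, with Slc31a1, the high-affinity importer, higher (0.22) and Slc31a2 lower (-0.18). No magnesium carrier of the Slc41 family passed. Of 11 genes of metal storage and sensing 6 rose and none fell (54.5% called, against 40.9% of all genes tested). Among the rises, Hmox1, heme oxygenase 1, had 1174 ± 11.8 CPM in the knockout-labelled libraries and 899 ± 11.1 CPM in the wild-type libraries (SD, n = 3 each). Tfrc, the transferrin receptor (log2 change 0.49), and Mt1, a metallothionein (0.30), rose too.

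Most of the zinc and copper changes were small. With the assumed spread 4 members of the class passed, Slc11a1, Slc40a1, Slc39a8 and Slc39a4, and all others named here did not. The Slc30a9 call ended on leaving out knockout replicate 1 or wild-type replicate 3, with edgeR adjusted p of 0.0655 and 0.0714 (alternatives spanned 0.00544 to 0.506). Slc30a5 was marginal (edgeR adjusted p = 0.0414) and was kept only without knockout replicate 1, without wild-type replicate 2 and with a filter of 1 CPM. On leaving out knockout replicate 2, knockout replicate 3, wild-type replicate 1 or wild-type replicate 3 its edgeR adjusted p was 0.114, 0.337, 0.0741 and 0.178, and over all alternatives it spanned 0.00627 to 0.6.

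Carriers of monocarboxylates, dicarboxylates and bile acids rose in 6 of 12 members and 1 fell, with a median log2 change of 0.17. Slc13a3, an importer of succinate and other dicarboxylates, had 7.65, 9.02 and 9.54 CPM in the knockout-labelled libraries, against 2.91, 2.15 and 3.81 CPM in the wild-type libraries, a 2.91-fold difference (log2 change 1.54, SE 0.17) at a low level. Slc16a10, an aromatic amino acid carrier by function, had 216, 218 and 215 CPM in the knockout-labelled libraries, against 151, 150.3 and 156 CPM in the wild-type libraries and rose by 0.51. The lactate carrier genes Slc16a1 and Slc16a3 went in opposite directions, and Slc16a7, also a lactate carrier gene, rose. Slc16a1, which encodes MCT1, had 34.8, 42.5 and 38.3 CPM in the knockout-labelled libraries, against 46.8, 53.5 and 47.1 CPM in the wild-type libraries and fell by 0.35 (edgeR adjusted p = 2.19e-06). Slc16a3, the lactate exporter MCT4, had 224, 232 and 233 CPM in the knockout-labelled libraries, against 203, 199 and 212 CPM in the wild-type libraries and rose by 0.17, a call that ended with the assumed spread. Per length Slc16a3 was the more abundant of the pair, at 43.2 CPM per kilobase in the knockout-labelled libraries and 38.5 in the wild-type libraries, where Slc16a1 had 8.70 CPM per kilobase in the knockout-labelled libraries and 11.1 in the wild-type libraries. Bsg and Emb, which encode the chaperones that bring these carriers to the surface, fell by 0.34 and 0.48. The related Slc16a7 rose by 0.56 and Slc16a6 by 0.50, although 22.5% of the exonic bases of Slc16a6 are shared with other measured genes, chiefly Amz2 on the opposite strand. Slc16a9, whose human counterpart is linked to serum urate, did not pass (0.03, edgeR adjusted p = 0.909). In this class 5 members passed with the assumed spread.

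Nucleoside and vitamin carriers rose in 4 of 11 members and 1 fell, with a median log2 change of 0.13. Slc28a2, which concentrates purine nucleosides in the cell, had 109, 109 and 107 CPM in the knockout-labelled libraries, against 73.4, 68.1 and 70.8 CPM in the wild-type libraries. Slc23a2, the ascorbate importer SVCT2, had 219, 213 and 213 CPM in the knockout-labelled libraries, against 148, 152 and 153 CPM in the wild-type libraries. Both rose without overlap, by 0.62 and 0.51 (edgeR adjusted p = 5.86e-24 and 3.18e-26). The equilibrative nucleoside carrier Slc29a1 did not pass (0.06, edgeR adjusted p = 0.356), and the lysosomal Slc29a3 had 139, 133 and 132 CPM in the knockout-labelled libraries, against 157, 147 and 157 CPM in the wild-type libraries and fell by 0.19. The riboflavin carrier gene Slc52a2 rose by 0.27, and Slc46a3, a lysosomal carrier, by 0.66. The Slc46a3 call ended on leaving out knockout replicate 3 (edgeR adjusted p = 0.0701, range 0.00309 to 0.0701). With the assumed spread Slc28a2, Slc23a2 and Slc46a3 passed. The folate carrier Slc19a1 and the thiamine carrier Slc19a2 did not pass in the main test (-0.11 and -0.21).

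Carriers of fatty acids, choline and acetyl-CoA rose in 4 of 6 members and none fell, all by little. Slc27a1, the fatty acid carrier FATP1, had 272, 270.4 and 266 CPM in the knockout-labelled libraries, against 236, 239.5 and 244 CPM in the wild-type libraries (log2 change 0.17). The choline carrier Slc44a1 rose by 0.15, Slc27a4 by 0.17 and Slc33a1, which takes acetyl-CoA into the endoplasmic reticulum, by 0.31. None of the 4 passed with the assumed spread.

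Organic anion and cation carriers were called least often among the classes of at least 10 members, with 1 of 13 higher and 1 lower, 15.4% of the class. Slco3a1, an organic anion carrier, had 147, 140.4 and 141 CPM in the knockout-labelled libraries, against 107, 99.0 and 109 CPM in the wild-type libraries and rose by 0.45 (edgeR adjusted p = 1.76e-18). Slc22a23, an orphan member, fell by 1.14 at very low levels, 1.08 ± 0.101 CPM in the knockout-labelled libraries and 2.41 ± 0.273 CPM in the wild-type libraries (SD, n = 3 each). The carnitine carrier Slc22a5 (0.17), the ergothioneine carrier Slc22a4 (0.16), the prostaglandin carrier Slco2a1 (-0.11) and the lysosomal sialic acid exporter Slc17a5 (0.10) did not pass. The class had the lowest median level per length of the 11 classes, 1.18 CPM per kilobase over the 6 libraries, against 5.83 for all members.

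Among nucleotide sugar carriers 1 of 5 members fell and none rose. Slc35a3, which brings UDP-N-acetylglucosamine into the Golgi, had 47.5, 54.3 and 49.7 CPM in the knockout-labelled libraries, against 68.6, 60.7 and 62.2 CPM in the wild-type libraries and fell by 0.34 (edgeR adjusted p = 9.74e-08). Slc35a4, the most abundant of the class per length, did not pass (0.04, edgeR adjusted p = 0.479). The lettered subfamilies of this and other families fall outside the naming pattern of the set, and of their 19 tested genes 7 rose and 2 fell (47.4% called). Slc35f6 and Slc35f5 rose by 0.27 and 0.29, and Slc35e3 and Slc35d2 fell by 0.38 and 0.31. Of 37 tested carriers of the same kind with other symbols 11 rose and 7 fell (48.6% called, near the 43.8% of protein-coding genes), with Magt1, Mfsd1 and Ucp2 higher (0.29, 0.18 and 0.17) and Flvcr1, Mtch2 and Cln3 lower (-0.25, -0.19 and -0.19).

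The pattern also took in 3 genes that are named after a carrier without being one. Slc7a6os fell by 0.35, a call that ended with the assumed spread, while the scaffold gene Slc9a3r1 (0.02, edgeR adjusted p = 0.696) and Slc4a1ap (-0.07, edgeR adjusted p = 0.433) did not pass. Just inside the limit of 10 counts lay Slc7a4, with 28, 26 and 22 counts in the knockout-labelled libraries and 19, 10 and 14 in the wild-type libraries. It was called higher (edgeR adjusted p = 0.0433), a call kept without wild-type replicate 1 and lost on leaving out any other library (up to 0.156 without wild-type replicate 2, all alternatives 0.0354 to 0.156). Slc25a35 had 10, 29 and 19 counts in the knockout-labelled libraries and 16, 14 and 23 in the wild-type libraries, and Slc12a1 had 11, 26 and 33 in the knockout-labelled libraries and 19, 20 and 33 in the wild-type libraries. Just outside it 7 genes had a lowest count of 8. Of these, Slc7a3 had 31, 19 and 22 counts in the knockout-labelled libraries and 9, 8 and 9 in the wild-type libraries. Slc25a29 had 8, 18 and 9 counts in the knockout-labelled libraries and 11, 17 and 13 in the wild-type libraries. Slc9a3r2 had 16, 19 and 23 counts in the knockout-labelled libraries and 23, 8 and 23 in the wild-type libraries.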

How the data were processed

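Gene expression was measured by RNA sequencing of total RNA in 6 libraries, 3 labelled Tet2 knockout and 3 wild-type, grouped by their titles. The deposited values are raw read counts per gene, made by the authors with fastp, STAR and featureCounts on mm10, per the submitters' processing notes, without versions or strand setting. Reads of overlapping or near-identical genes cannot be separated here. Gene length in bases is the authors' deposited value, and dividing by it gave CPM per kilobase. Gene positions matched GENCODE M21 (GRCm38) in start and end for 98.3% of 54409 shared gene IDs, and exon overlaps were taken from it.

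Counts were tested in R 4.3.3 with edgeR 4.0.16 (filterByExpr with a minimum count of 10, TMM, robust quasi-likelihood test, genotype the only term, prior count 0.125) across 13175 genes, with Benjamini-Hochberg adjustment and a threshold of 0.05. The SE is the log2 change divided by the square root of F. Errors of levels are SDs (n = 3). With 3 libraries a side, permuting labels cannot pass the threshold, so no such test was run. Alternatives were DESeq2 1.42.0, limma-voom (limma 3.58.1), upper-quartile or RLE factors, other filters on low counts, other member limits, the replicate number as a block, a dispersion preset to a coefficient of variation of 0.1, and each library left out.

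The members, classes (by family) and lists were chosen with earlier results of these data known. Named genes are Slc2a9, Slc9a9, up to 3 called members per class and direction with the smallest p, an average log2 CPM of at least 1 and no overlap, the most abundant member of each class per length, members within 10 Mb of Tet2, and those nearest the count limit. In the companion lists the rule takes up to 3 called genes per direction, and the urate genes. Further members, among them those with a 2-fold change, were named after their values were seen. Some genes are not reported here by name. Figures were drawn in Python 3.11.15 with matplotlib 3.10.9.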

Additional observations from a re-analysis of the deposited data

How the results depend on the processing

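With the biological coefficient of variation assumed at 0.1, 32 members were called higher and 11 lower, and the classes kept 9 calls (amino acids), 0 (fatty acids, choline and acetyl-CoA), 6 (inorganic ions), 8 (mitochondrial), 0 (not carriers), 3 (nucleosides and vitamins) and 4 (metals). The alternative widens the spread by construction. Under the other alternatives the number of higher calls ran from 64 (DESeq2) to 74 and that of lower calls from 19 (DESeq2) to 26 (upper-quartile scaling), and the calls per class, both directions together, stayed within 1.5 times. Leaving out 1 library gave 68 to 69 higher and 20 to 24 lower calls; without wild-type replicate 2, which has the lowest total, these were 69 and 24. The log2 change of Slc2a9 then ran from 0.59 to 0.78 and that of Slc9a9 from 2.13 to 2.41. With a replicate block the counts were 73 and 22. Deviations of same-numbered libraries from their group means correlated at 0.00402, -0.00609 and -0.0137 across genes, so the numbers were not taken to pair them. A limit of 20 or 50 counts per library gave 70 and 65 higher and 21 and 20 lower. No named member reversed. The call of Slc7a4 was lost under most alternatives. Low counts limit members near 10 reads, where SEs reach 0.336 on the log2 scale.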
